A study of Homo sapiens with 18 samples.

Results

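The 40 genes of a set for the cornified envelope and the skin barrier were followed in 3 head and neck squamous cell carcinoma (HNSCC) lines in which the transcription factor EHF had been raised or lowered. They were taken by symbol from count tables of 23710 genes, and all 40 were found in every line. EHF overexpression was measured in 3 A253 libraries against 3 A253 control libraries and in 2 SCC25 libraries against 2 SCC25 control libraries. EHF knockdown was measured in CAL27, in 2 libraries with the hairpin named sh 65 and 2 with the hairpin named sh 64, against 2 control libraries. A253 is a line from a carcinoma of the submandibular gland, and SCC25 and CAL27 are lines from carcinomas of the tongue.

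Overexpressing A253 and SCC25 cells were grown with doxycycline (1 ug per the labels), which switches on an inducible EHF construct, and their controls were grown in regular medium without it. Effects of the drug and of EHF cannot be told apart in these lines. The CAL27 control carries the heading of a control hairpin in the count table, all 6 CAL27 libraries were grown in regular medium, and the labels do not say whether any line was 1 clone or a pool. The labels call the knockdowns 1 and 2, which cannot be tied to the hairpin names. The deposited count and TPM tables give sh 64 and sh 65 the other way round, and replicates 1 and 2 of 1 hairpin (sh 64 in the count table) are exchanged as well. The names and numbers of the count table are used here. The labels do not say whether the replicates of a group were separate cultures, so every p-value measures the spread between these libraries, which may be technical.

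The cornified envelope is the protein and lipid shell that replaces the cell membrane of a keratinocyte at the end of its life. Transglutaminases crosslink precursors such as involucrin, loricrin and the small proline-rich proteins onto a scaffold of envoplakin and periplakin, and ceramides are attached to the outside to seal the barrier. Many of the precursor and filaggrin-type genes lie side by side on chromosome 1 in the epidermal differentiation complex, and squamous carcinomas are often graded by how much of this programme they keep. EHF belongs to the ETS family, whose members bind DNA at a GGAA core.

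Of the 40 genes, 16 lie on chromosome 1 and 24 on other chromosomes in the RefSeq annotation. Promoter windows of 300 bases, 250 before and 50 after a transcription start, were found for 33 of the 40 genes in RefSeq (GRCh38.p14), 46 windows in all. The letters TGANTCA, the site read by the AP-1 family that drives many keratinocyte genes, occurred in 41.3% of these 46 windows and in 7.71% of all 35116 windows. The letters GGAAGT, an ETS core with a flank that EHF and its relatives prefer, occurred on either strand in 28.3% of the 46 windows and in 22.8% of all windows. CCGGAA, the ETS core with the flank on its other side that EHF and its relatives also prefer, occurred in 6.52% against 17.2%. The bare core GGAA occurred in 95.7% against 95.5%. GGAAGT and CCGGAA share the GGAA core and can overlap in it. The 250 bases before the start are shown for 4 chromosome 1 genes with large changes, on the strand of the gene, with GGAAGT and TGANTCA in capitals.
SPRR1B: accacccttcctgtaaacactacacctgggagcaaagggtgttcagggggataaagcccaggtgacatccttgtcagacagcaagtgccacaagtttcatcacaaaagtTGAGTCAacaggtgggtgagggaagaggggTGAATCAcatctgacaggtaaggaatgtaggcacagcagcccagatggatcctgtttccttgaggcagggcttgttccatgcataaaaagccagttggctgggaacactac
SPRR1A: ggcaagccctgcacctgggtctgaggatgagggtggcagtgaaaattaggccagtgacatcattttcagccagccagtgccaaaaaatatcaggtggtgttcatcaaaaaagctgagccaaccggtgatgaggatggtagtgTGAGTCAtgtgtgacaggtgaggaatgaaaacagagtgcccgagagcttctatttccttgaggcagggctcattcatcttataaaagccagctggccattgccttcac
IVL: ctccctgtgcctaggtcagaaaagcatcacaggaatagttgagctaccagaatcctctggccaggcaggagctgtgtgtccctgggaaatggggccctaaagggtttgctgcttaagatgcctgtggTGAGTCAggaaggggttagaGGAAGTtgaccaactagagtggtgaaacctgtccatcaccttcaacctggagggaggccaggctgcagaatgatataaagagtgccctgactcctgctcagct
FLG: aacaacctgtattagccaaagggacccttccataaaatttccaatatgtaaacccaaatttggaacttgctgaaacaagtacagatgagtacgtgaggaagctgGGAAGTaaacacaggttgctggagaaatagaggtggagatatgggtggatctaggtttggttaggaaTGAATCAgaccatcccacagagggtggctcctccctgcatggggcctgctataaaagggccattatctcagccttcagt
The windows lie at chr1:153030953-153031202 (SPRR1B, plus strand), chr1:152983831-152984080 (SPRR1A, plus strand), chr1:152908296-152908545 (IVL, plus strand) and chr1:152325240-152325489 (FLG, minus strand). SPRR1B held TGAGTCA 141 bases and TGAATCA 111 bases before the start, and SPRR1A held TGAGTCA 108 bases before it. IVL held TGAGTCA 123 bases and GGAAGT 103 bases before the start, and FLG held GGAAGT 146 bases and TGAATCA 79 bases before it. These matches describe letters, and binding of a factor was not measured in this comparison.

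Gene counts per library lay between 11090976 and 17823293 in A253, between 10728569 and 15965279 in SCC25 and between 7068155 and 19962159 in CAL27. EHF itself averaged 703 ± 66.6 CPM (counts scaled to library size) in overexpressing and 86.4 ± 4.43 CPM in control A253 cells (SD, n = 3 each), 876 ± 23.2 and 440 ± 28.7 CPM in overexpressing and control SCC25 cells (SD, n = 2 each), and 457 ± 18.2 CPM with sh 65, 511 ± 20.5 CPM with sh 64 and 977 ± 20.9 CPM in control CAL27 cells (SD, n = 2 each). All 8 squamous epithelial markers (KRT5, KRT14, TP63, KRT6A, CDH1, EPCAM, DSG3 and DSC3) were found in every group. Their summed level was 11630 to 12600 CPM in overexpressing and 13310 to 14220 CPM in control A253 libraries, 15810 to 16180 and 15670 to 16430 CPM in overexpressing and control SCC25 libraries, and 10220 to 11500 CPM with sh 65, 9309 to 10000 CPM with sh 64 and 6737 to 7052 CPM in control CAL27 libraries. The sum was thus higher in each knockdown library than in both CAL27 controls and lower in each overexpressing A253 library than in its controls, and the part of this in the changes below was not tested. Markers of fibroblasts summed to at most 110.6 CPM, of leukocytes to at most 45.98 CPM and of endothelium to at most 7.298 CPM in any library, and 5 of the 7 salivary acinar markers were at 0 in A253. Some sums differed between groups, and the shares of all genes called in each line are given further below. For leukocytes they were 8.687 to 10.29 CPM in overexpressing and 5.231 to 5.579 CPM in control A253, and 39.15 to 45.98 and 31.24 to 34.47 CPM in SCC25. For fibroblasts they were higher in overexpressing SCC25 (107.9 to 110.6 against 87.84 to 98.46 CPM) but lower in overexpressing A253 (6.833 to 7.904 against 9.109 to 11.22 CPM). In CAL27 they were 8.729 to 9.323 CPM with sh 65, 14.22 to 16.7 with sh 64 and 8.08 to 8.957 in control. Endothelial sums there were 4.108 to 5.569, 3.94 to 5.095 and 6.363 to 7.298 CPM. The sums were not tested. Of 2 leukocyte markers, edgeR called 1 higher in A253 and 1 in SCC25. Fibroblast markers gave 1 lower of 2 in A253, and 2 higher and 1 lower of 5 in SCC25. With sh 64, 1 of 3 fibroblast markers was called higher and 1 of 2 endothelial markers lower, and with sh 65 none. The salivary markers summed to at most 0.2939 CPM in A253 and 0.6603 CPM in SCC25, but in CAL27 to 16.34 to 50.93 CPM with sh 65, 36.94 to 53.62 CPM with sh 64 and 31.26 to 43.79 CPM in control. These CAL27 sums overlapped, and none of the 4 markers tested there was called by edgeR. Their log2 changes against control still ran from -0.47 to 6.72 for the mean of both hairpins. The range was -0.80 to 6.87 with sh 65 and -0.14 to 6.57 with sh 64. The part of these markers in the results was not tested.

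Per transcript length, the 40 genes made up a small share of the RNA, and the 3 lines used different members. TPM (transcript abundance, which also divides by gene length) summed over the genes to 348 ± 10.8 in overexpressing and 394.8 ± 15.1 in control A253 cells (SD, n = 3 each). The sum was 752.1 ± 25.3 TPM in overexpressing and 692.5 ± 40.04 TPM in control SCC25 cells, and 449.1 ± 2.76 TPM with sh 65, 514.7 ± 0.916 TPM with sh 64 and 319 ± 6.63 TPM in control CAL27 cells (SD, n = 2 each). Every sh 65 and sh 64 library lay above both CAL27 controls, and every overexpressing A253 library lay below its controls. In control cells, 16 genes of the 40 reached a mean of 1 TPM in A253, 19 in SCC25 and 15 in CAL27. In bulk RNA, fewer cells that express a gene and less RNA per cell cannot be told apart.

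**Figure D1:**
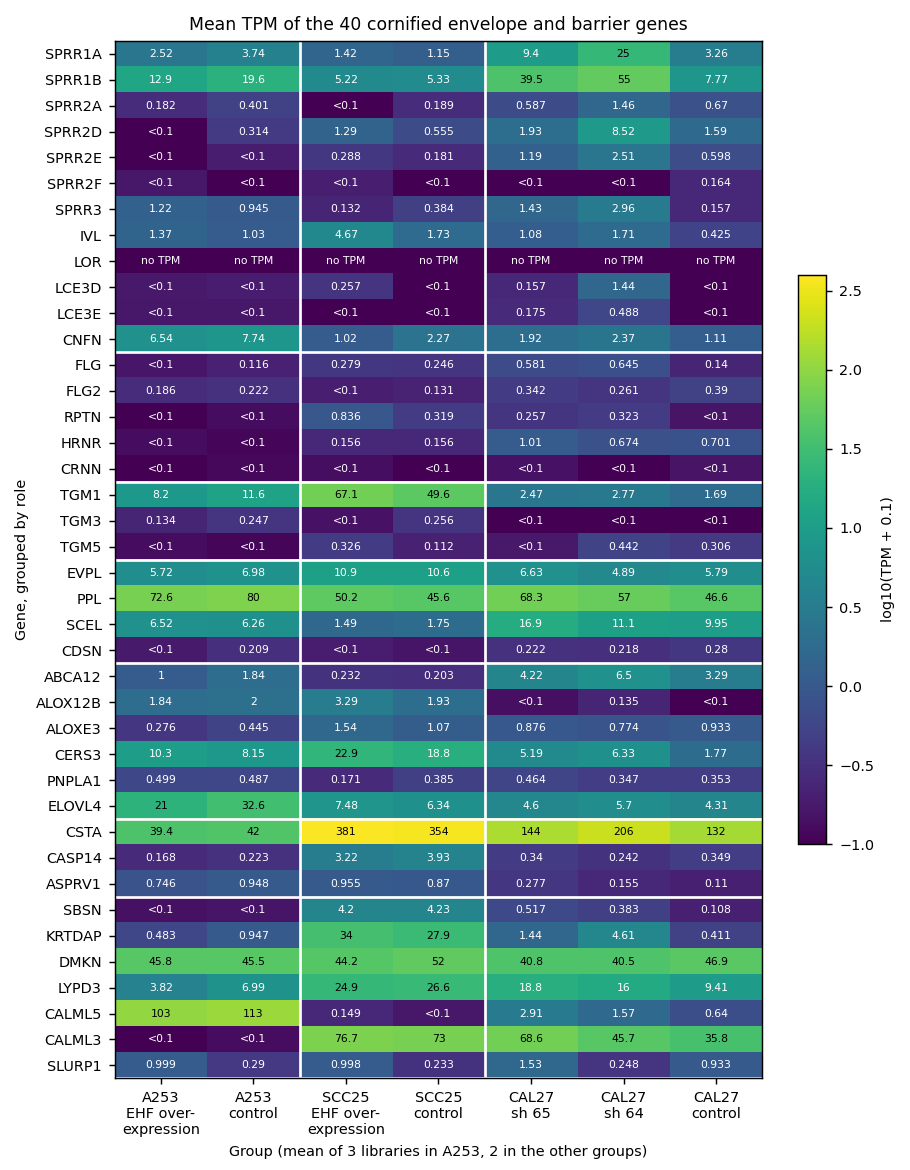
Mean TPM (colour, log10 scale, with the value in each cell) of the 40 genes, in rows grouped by role, in the 7 groups of A253, SCC25 and CAL27 libraries. CSTA is the highest gene in SCC25 and CAL27, CALML5 and PPL are highest in A253, and most envelope precursors stay under 10 TPM.

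The cysteine protease inhibitor CSTA (cystatin A), a crosslinked envelope component, had the highest level of the 40 in SCC25 and CAL27 controls, at 354 ± 14.7 TPM in SCC25 and 132 ± 9.04 TPM in CAL27 (SD, n = 2 each), against 42.0 ± 2.65 TPM in A253 controls (SD, n = 3). The calcium sensor CALML5 showed the reverse, with 112.5 ± 0.491 TPM in A253 (SD, n = 3), 0.640 ± 0.134 TPM in CAL27 and 0.0728 ± 0.103 TPM in SCC25 (SD, n = 2 each). Its relative CALML3 reached 73.0 ± 4.02 TPM in SCC25 and 35.8 ± 0.467 TPM in CAL27 (SD, n = 2 each), but 0.0302 ± 0.0523 TPM in A253 (SD, n = 3). These 3 genes had no overlap between any pair of lines among the controls. The same held for other members, such as SPRR1B, SCEL, CERS3, ELOVL4 and LYPD3, so it does not set them apart. The share over all genes was not counted. The transglutaminase TGM1 stood at 49.6 ± 5.15 TPM in SCC25, 11.6 ± 0.632 TPM in A253 and 1.69 ± 0.0103 TPM in CAL27 controls (SD, n = 2, 3 and 2), also without overlap. The lines were grown and tabulated apart, so these orders are descriptions without a test.

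Other abundant members were shared by all 3 lines. DMKN (dermokine), a secreted protein of the upper epidermis, had 52.0 TPM in SCC25, 46.9 TPM in CAL27 and 45.5 TPM in A253 controls, and CAL27 and A253 overlapped. The scaffold protein PPL (periplakin) had 80.0 TPM in A253, clear of 46.6 TPM in CAL27 and 45.6 TPM in SCC25, which overlapped. At the other end, LOR (loricrin) had 1 count in a single SCC25 control library and none in the other libraries, and no TPM could be set for it. TGM3 had no count in any CAL27 library, and CALML3 had none in the overexpressing A253 libraries. The TPM of CDSN (corneodesmosin) rests on a length 1.21 times that of the very long gene FLG, so its level is not set against other genes here.

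A test needs counts, and edgeR's filter (about 0.635 CPM in A253, 0.669 in SCC25 and 1.07 in CAL27 in enough libraries) left 22 of the 40 genes in A253, 22 in SCC25 and 21 in CAL27. There were 14 genes tested in all 3 lines, and 11 were tested in none: SPRR2A, SPRR2E, SPRR2F, SPRR3, LOR, LCE3D, LCE3E, CRNN, TGM3, TGM5 and SLURP1. A gene that passed this filter only because 1 group was high had to differ, so counts over tested genes are descriptions. In CAL27, 5 tested genes were below the filter level in at least 1 control library (SPRR1A, SPRR2D, IVL, FLG and CALML5), in A253 3 (FLG, ALOXE3 and PNPLA1) and in SCC25 2 (RPTN and ASPRV1). A gene was called where edgeR's quasi-likelihood test gave a Benjamini-Hochberg adjusted p under 0.05 over all genes tested in that line. Log2 changes are EHF-changed over control, with their standard error (SE). Called genes tend to have groups that do not overlap, so a lack of overlap describes their values and adds no support to the call.

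EHF knockdown in CAL27 went with higher levels of 14 of the 21 genes tested, and none of the 21 was called lower. The 14 included the envelope precursor SPRR1B and 3 more precursors that were below the filter level in a control (SPRR1A, SPRR2D and IVL), while 8 of the 12 precursors were not tested. They also included the filament-aggregating protein FLG, the crosslinking enzyme TGM1 and the ceramide genes CERS3 and ABCA12. As a background, 9.88% of the 13629 genes tested in CAL27 were called higher and 8.91% lower (18.8% in all) for the mean of both hairpins against control. The median log2 change of the 21 genes was 0.69, against 0.0025 for all genes tested. The 21 include the 5 genes below the filter level in a control, with log2 changes of 1.58 to 2.31. These were tested through the knockdown libraries and raise the median. Of the 16 genes that reached the filter level in both controls, 9 were called higher. At an unadjusted p under 0.05 edgeR placed 1 gene lower, DMKN. DESeq2 called 10 of the 14 genes higher and 0 lower. The summed squamous markers were also higher in these knockdown libraries, and their part in the counts was not tested.

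**Figure D2:**
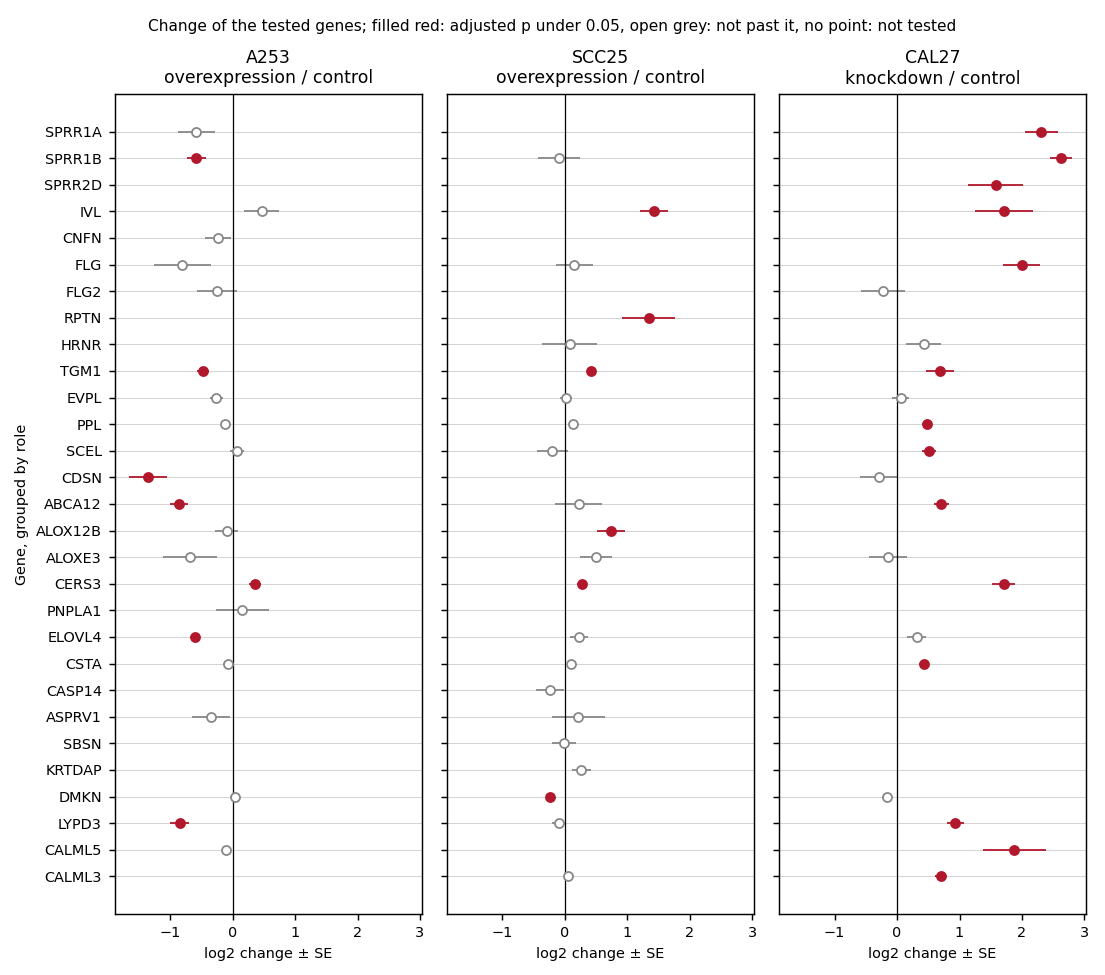
Log2 change (EHF-changed over control, bars are standard errors) of each tested gene, grouped by role, in A253 overexpression (n = 3 and 3), SCC25 overexpression (n = 2 and 2) and CAL27 knockdown (mean of both hairpins, n = 4 and 2). Filled points passed adjusted p under 0.05 by edgeR: 7 in A253, 6 in SCC25 and 14 in CAL27, the last all to the right of 0.

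Among the precursors, SPRR1B, a small proline-rich protein crosslinked into the envelope, had 13.6 and 13.1 CPM with sh 65 and 16.5 and 20.1 CPM with sh 64, against 2.54 and 2.47 CPM in control. Every knockdown library lay well above both controls, and SPRR1B rose by a log2 change of 2.63 (SE 0.17, adjusted p = 4.02e-08 by edgeR), the largest of the 21 genes. Its near-copy SPRR1A had 3.08 and 3.63 CPM with sh 65 and 7.88 and 9.77 CPM with sh 64, against 1.22 and 1.01 CPM in control, a rise of 2.31 (SE 0.26, edgeR adjusted p = 8.16e-06). The groups did not overlap, and the sh 65 libraries lay between the sh 64 libraries and the controls. How reads that match more than 1 of the SPRR copies were counted is not given in the sources used here, so the split between SPRR family members is uncertain.

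SPRR2D, of the same family, had 0.822 and 0.605 CPM with sh 65 and 2.86 and 3.40 CPM with sh 64, against 0.774 and 0.354 CPM in control. Both sh 64 libraries lay clear of the controls, and 1 of the 2 sh 65 libraries lay between them. Its mean log2 change of 1.58 (SE 0.44) passed in edgeR (adjusted p = 0.0187) but not in DESeq2 (adjusted p = 0.12), nor in edgeR without sh 65 replicate 1 (adjusted p = 0.0691) or control replicate 2 (0.93, adjusted p = 0.396). IVL (involucrin), an early precursor laid down at the membrane, had 0.719 and 1.82 CPM with sh 65 and 2.55 and 1.42 CPM with sh 64, against 0.442 and 0.505 CPM in control. All 4 knockdown values were higher than both controls, with a wide spread in each hairpin. The rise of 1.71 (SE 0.46, edgeR adjusted p = 0.0149) was not called by DESeq2 (adjusted p = 0.0898) or by edgeR without sh 65 replicate 2, sh 64 replicate 1 or either control library.

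The other precursors were near the limit of detection in CAL27. SPRR3, which is typical of the lining of the mouth and oesophagus, had 50 counts in the 4 knockdown libraries and 2 counts in the 2 controls, a depth-scaled ratio of 19.0 (95% interval 4.98 to 161, counting error only). Of the 50, sh 65 gave 14 and sh 64 gave 36, of which 30 were in replicate 1. SPRR3 failed the filter, and without a filter edgeR called it higher (adjusted p = 6.60e-06). LCE3D, a late envelope protein, had 9 counts in knockdown libraries and 0 in controls, at least 2.28-fold higher against a floor of 3 counts over the group, but 8 of the 9 counts came from sh 64 and 1 from sh 65. SPRR2A had 0.308 and 0.121 CPM with sh 65 and 1.08 and 0 CPM with sh 64, against 0.221 and 0.253 CPM in control, and these groups overlapped. CNFN (cornifelin), SPRR2E, SPRR2F and LCE3E were also too low to test, and their group means stayed under 1 CPM in all CAL27 groups.

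FLG (filaggrin), whose product binds keratin filaments and is broken down into the skin's natural moisturising factor, had 4.42 and 3.63 CPM with sh 65 and 4.48 and 4.39 CPM with sh 64, against 0.553 and 1.31 CPM in control. All 4 knockdown libraries lay above both controls, with sh 65 replicate 2 the lowest of them. FLG rose by 2.00 (SE 0.29, edgeR adjusted p = 1.19e-04), and by 2.91 without control replicate 2 (edgeR adjusted p = 3.77e-04). Its neighbours of the same S100-fused family did not follow past the threshold. HRNR (hornerin) had 6.67 and 3.87 CPM with sh 65 and 4.64 and 2.41 CPM with sh 64, against 4.20 and 2.83 CPM in control (log2 change 0.42, SE 0.28, edgeR adjusted p = 0.333), with overlapping groups. FLG2 had a log2 change of -0.22 (SE 0.35, edgeR adjusted p = 0.717), and RPTN (repetin) and CRNN (cornulin) were not tested.

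TGM1, the membrane-bound transglutaminase that attaches precursors and ceramides, had 3.59 and 3.87 CPM with sh 65 and 4.48 and 3.82 CPM with sh 64, against 2.43 and 2.47 CPM in control. No knockdown value overlapped the controls. Its rise of 0.69 (SE 0.22, edgeR adjusted p = 0.039) was not called by DESeq2 (adjusted p = 0.262) or by edgeR without sh 65 replicate 2 (adjusted p = 0.0691), sh 64 replicate 1 (adjusted p = 0.122) or either control library (adjusted p = 0.187 and 0.261). Of the scaffold, PPL had 239 and 224 CPM with sh 65 and 204 and 180 CPM with sh 64, against 152 and 152 CPM in control, and rose by 0.48 (SE 0.07, edgeR adjusted p = 1.10e-04). SCEL (sciellin), another crosslinked precursor, had 27.3 and 32.1 CPM with sh 65 and 19.8 and 18.8 CPM with sh 64, against 16.1 and 17.4 CPM in control, and rose by 0.51 (SE 0.11, edgeR adjusted p = 0.00376). For both genes the sh 65 libraries were highest and no knockdown library reached down to the controls, but SCEL missed the threshold without control replicate 1 (adjusted p = 0.0674 by edgeR). EVPL (envoplakin, log2 change 0.06, SE 0.13) and CDSN, an adhesive protein of corneodesmosomes (-0.29, SE 0.29), did not pass in edgeR (adjusted p = 0.812 and 0.544).

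**Figure D3:**
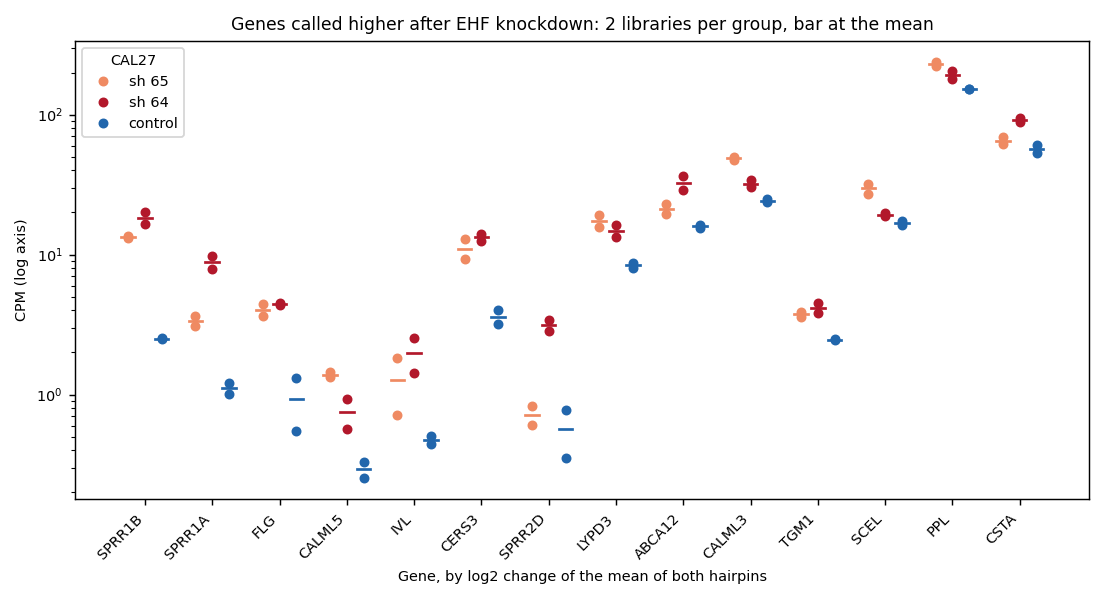
CPM (log axis) in each of the 2 sh 65, 2 sh 64 and 2 control CAL27 libraries, with a bar at the group mean, for the 14 genes called higher after EHF knockdown. SPRR1B and SPRR1A separate furthest from the controls, and in SPRR2D the sh 65 libraries, at 0.822 and 0.605 CPM, lie close to the controls.

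The lipid arm of the barrier was split. CERS3, which makes the very long ceramides of the epidermis, had 9.24 and 12.8 CPM with sh 65 and 14.1 and 12.5 CPM with sh 64, against 3.21 and 3.99 CPM in control. Each knockdown library exceeded both controls by over 2-fold, and CERS3 rose by 1.71 (SE 0.18, edgeR adjusted p = 4.13e-06). ABCA12, the transporter that loads lipids into lamellar granules, had 23.1 and 19.5 CPM with sh 65 and 28.7 and 36.2 CPM with sh 64, against 15.6 and 16.3 CPM in control, and rose by 0.71 (SE 0.12, edgeR adjusted p = 4.97e-04). The groups again did not overlap. The fatty acid elongase ELOVL4 (0.31, SE 0.16, edgeR adjusted p = 0.19) and the lipoxygenase ALOXE3 (-0.15, SE 0.30, adjusted p = 0.781) did not pass, and its partner lipoxygenase ALOX12B had 4 counts in knockdown libraries and 0 in controls.

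Of the surface, secreted and calcium-binding genes, LYPD3, a membrane-anchored adhesion protein of suprabasal cells, had 15.8 and 19.1 CPM with sh 65 and 16.2 and 13.3 CPM with sh 64, against 8.07 and 8.69 CPM in control, and rose by 0.93 (SE 0.14, edgeR adjusted p = 1.39e-04). CALML3 had 49.5 and 47.7 CPM with sh 65 and 33.8 and 30.4 CPM with sh 64, against 23.8 and 24.8 CPM in control, and rose by 0.70 (SE 0.09, edgeR adjusted p = 4.20e-05). Neither gene had overlapping groups. CALML5 was low, with 1.44 and 1.33 CPM with sh 65 and 0.927 and 0.566 CPM with sh 64, against 0.332 and 0.253 CPM in control. Its rise of 1.87 (SE 0.50, edgeR adjusted p = 0.0144) was not called by DESeq2 (adjusted p = 0.147) or by edgeR without sh 64 replicate 1 or either control library. CSTA had 61.4 and 68.6 CPM with sh 65 and 94.5 and 89.0 CPM with sh 64, against 53.5 and 60.5 CPM in control, and rose by 0.43 (SE 0.08, edgeR adjusted p = 0.00111). Its lower sh 65 library was barely above the higher control, and without control replicate 1 CSTA missed the threshold (adjusted p = 0.0571 by edgeR).

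Neighbours of DMKN were low in CAL27. KRTDAP, a secreted peptide of differentiating keratinocytes, had 33 counts in knockdown libraries and 3 in controls, a ratio of 8.35 (95% interval 2.62 to 42.5), and SBSN (suprabasin) had 19 against 2, a ratio of 7.21 (1.74 to 63.8). By hairpin, sh 65 held 7 of the KRTDAP counts (ratio 3.74, interval 0.854 to 22.4, which includes 1) and sh 64 held 26 (ratio 12.5, 3.83 to 64.5). Without a filter edgeR called KRTDAP higher for the mean of both hairpins (adjusted p = 0.00999) but not for sh 65 alone (adjusted p = 0.294). DMKN itself had 56.3 and 56.4 CPM with sh 65 and 52.5 and 58.0 CPM with sh 64, against 60.27 and 64.04 CPM in control, and its log2 change of -0.16 (SE 0.08) did not pass (edgeR adjusted p = 0.155). It was the gene of the 21 nearest to a call in the lower direction. The proteases CASP14 and ASPRV1, which process filaggrin, the lipase PNPLA1 and the secreted peptide SLURP1 were not tested in CAL27 and stayed under 1 CPM on average in each of its groups.

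The hairpins were compared with each other, because both are set against the same 2 control libraries. With sh 65, 9 genes were called higher than control and none lower, where 7.62% of all genes tested were called higher and 7.01% lower (14.6% in all). With sh 64, 12 genes were called higher and none lower, where 8.76% of all genes were called higher and 6.89% lower (15.7% in all). In both, 0 genes were lower at an unadjusted p under 0.05 in edgeR and 0 by DESeq2. DESeq2 called 8 of the 9 genes higher with sh 65 and 9 of the 12 with sh 64. Without sh 64 replicate 1, which left 1 sh 64 library, the sh 64 count fell, and so did the count over all genes. Of the 16 genes that reached the filter level in both controls, 6 were called higher with sh 65 and 8 with sh 64. The others called were below that level in a control and were tested through the knockdown libraries. A direct test of sh 65 against sh 64 called 2 of the 21 genes higher and 4 lower, against 2.21% higher and 3.13% lower of all genes (5.34% in all). Without either sh 64 library the number of these calls and the number over all genes both fell, and without sh 65 replicate 2 both rose. Each of these fits left 1 library in a hairpin group. EHF differed by a log2 of -0.16 between sh 65 and sh 64 (SE 0.07, edgeR adjusted p = 0.23).

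**Figure D4:**
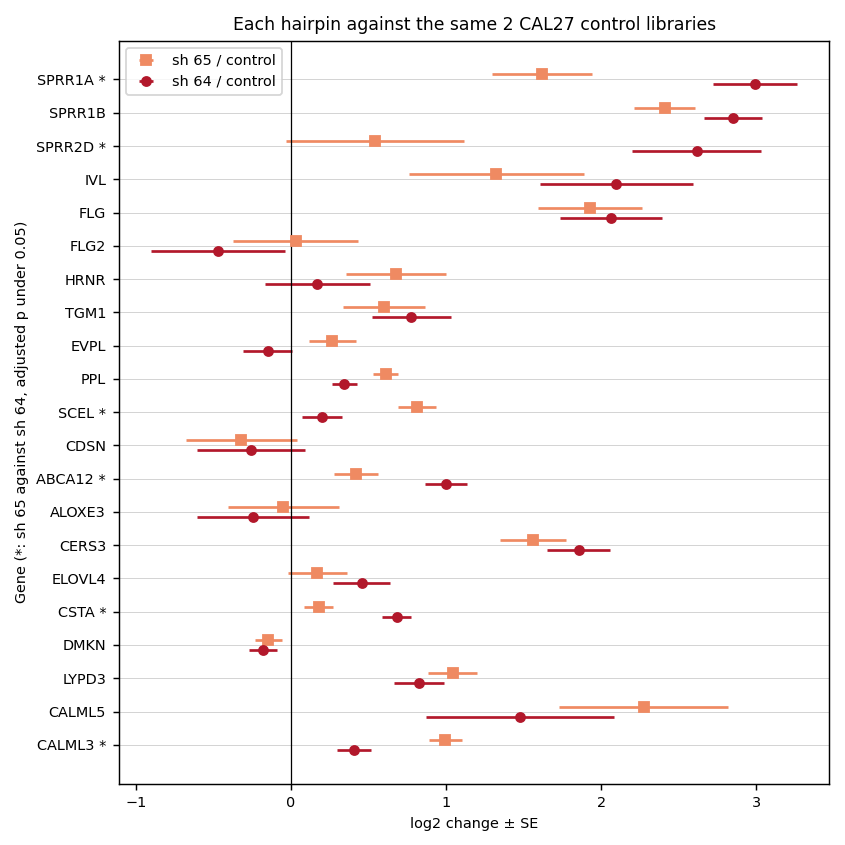
Log2 change against control (bars are standard errors) of the 21 tested genes for sh 65 (squares) and sh 64 (circles), each from 2 libraries and the same 2 control libraries. A star marks the 6 genes that differ between the hairpins by edgeR, and the widest gap is that of SPRR2D.

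Of the 4 tested precursors, 2 were higher with sh 64. SPRR2D differed by -2.07 between sh 65 and sh 64 (SE 0.43, edgeR adjusted p = 0.00719) and SPRR1A by -1.37 (SE 0.24, edgeR adjusted p = 0.00179). ABCA12 (-0.59, SE 0.14, edgeR adjusted p = 0.0157) and CSTA (-0.50, SE 0.09, edgeR adjusted p = 0.0029) were also lower with sh 65. SCEL (0.61, SE 0.13, edgeR adjusted p = 0.00755) and CALML3 (0.59, SE 0.11, edgeR adjusted p = 0.00226) were higher with sh 65. Of the 6 differences, those of SPRR1A and CALML3 were called in every alternative tried. SPRR2D was not called by DESeq2 (adjusted p = 0.0668), and SPRR2D, SCEL, ABCA12 and CSTA each lost the call when 1 of the sh 64 libraries was left out. SPRR1B (-0.44, SE 0.15, edgeR adjusted p = 0.118), FLG (-0.13, SE 0.28, adjusted p = 0.857) and CERS3 (-0.29, SE 0.18, adjusted p = 0.439) did not differ past the threshold.

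In A253, EHF overexpression went with lower levels of 6 of the 22 tested genes and a higher level of 1. Those lower were ABCA12, ELOVL4, LYPD3, TGM1, SPRR1B and CDSN, and the 1 that was higher was CERS3. Of the 14503 genes tested in A253, 2.94% were called lower and 5.03% higher, 7.97% in all. The median log2 change of the 22 genes was -0.25, against -0.0034 for all genes, and 17 of the 22 lay below 0. The 22 include FLG, ALOXE3 and PNPLA1, which were below the filter level in a control. All 7 called genes reached the filter level in every control library. The summed squamous markers were lower in the overexpressing A253 libraries as well, and their part in the counts was not tested.

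ABCA12 had 5.84, 4.23 and 4.04 CPM in overexpressing cells, against 8.05, 9.22 and 8.12 CPM in control, and fell by 0.86 on the log2 scale (SE 0.15, edgeR adjusted p = 0.00127). ELOVL4, which makes the ultra-long fatty acids of skin ceramides, had 30.0, 32.9 and 34.4 CPM in overexpressing cells, against 48.6, 49.3 and 50.5 CPM in control, and fell by 0.61 (SE 0.07, edgeR adjusted p = 3.51e-05). LYPD3 had 3.56, 3.56 and 2.72 CPM in overexpressing cells, against 6.27, 5.79 and 5.68 CPM in control, and fell by 0.84 (SE 0.15, edgeR adjusted p = 0.00189). All 3 overexpressing libraries lay below all 3 controls in each of these genes. TGM1 had 12.0, 12.0 and 10.4 CPM in overexpressing cells, against 15.59, 16.31 and 15.96 CPM in control, and fell by 0.47 (SE 0.10, edgeR adjusted p = 0.00492), again without overlap. ABCA12, ELOVL4, LYPD3 and TGM1 were called in every alternative.

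The other 3 calls in A253 were less firm. SPRR1B had 4.56, 3.79 and 3.75 CPM in overexpressing cells, against 5.41, 6.36 and 6.31 CPM in control, and fell by 0.58 (SE 0.15, edgeR adjusted p = 0.0221), with no overlap between the groups. CDSN, which overlaps another gene in the genome and is uncertain since the sources used here do not say whether counting used strand, had 0.427, 0.557 and 0.882 CPM in overexpressing cells, against 1.38, 1.63 and 1.80 CPM in control, and fell by 1.35 (SE 0.31, edgeR adjusted p = 0.0108), also without overlap. CERS3 had 20.9, 21.2 and 18.3 CPM in overexpressing cells, against 15.2, 15.9 and 16.1 CPM in control, and rose by 0.36 (SE 0.09, edgeR adjusted p = 0.0203). The lowest overexpressing value of CERS3 was above the highest control. DESeq2 called none of the 3 (adjusted p = 0.115, 0.0639 and 0.0948), and edgeR lost SPRR1B without any 1 of 4 libraries (overexpression replicates 2 and 3, control replicates 2 and 3), CERS3 without any 1 of 3 (overexpression replicates 1 and 2, control replicate 1) and CDSN without overexpression replicate 2.

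The other 15 tested genes did not pass in A253. CALML5, the highest of the 40 genes there per length, had 46.7, 42.5 and 47.7 CPM in overexpressing cells, against 49.3, 47.0 and 50.5 CPM in control, with overlapping groups (log2 change -0.10, SE 0.07, edgeR adjusted p = 0.507). PPL (-0.12, SE 0.07), CSTA (-0.07, SE 0.09), DMKN (0.03, SE 0.07) and SCEL (0.07, SE 0.12) had adjusted p-values of 0.391 to 0.869 in edgeR. FLG had 0.783, 0.223 and 0.294 CPM in overexpressing cells, against 0.633, 0.844 and 0.722 CPM in control (-0.80, SE 0.45, edgeR adjusted p = 0.369), and these overlapped. IVL had 1.57, 1.39 and 1.47 CPM in overexpressing cells, against 1.21, 0.731 and 1.35 CPM in control. Although no control reached the overexpressing libraries, the change of 0.46 (SE 0.28) did not pass (edgeR adjusted p = 0.412).

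In SCC25, EHF overexpression went with higher levels of 5 of the 22 tested genes, the precursor IVL, the S100-fused protein RPTN, TGM1, the lipoxygenase ALOX12B and CERS3, and a lower level of DMKN. In this line 12.2% of the 14120 genes tested were called higher and 11.6% lower, 23.9% in all. The median log2 change of the 22 genes was 0.14, against 0.0026 for all genes, and 16 lay above 0. The 22 include RPTN and ASPRV1, which were below the filter level in a control. Without overexpression replicate 1, which left 1 overexpressing library, fewer of the members and fewer of all genes were called. Of the 20 genes that reached the filter level in both controls, 4 were called higher and 1 lower; RPTN did not reach it and was tested through the overexpressing libraries.

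IVL had 5.09 and 5.12 CPM in overexpressing cells, against 2.1002 and 1.6905 CPM in control, and rose by 1.42 (SE 0.22, edgeR adjusted p = 4.07e-05). TGM1 had 93.0 and 97.8 CPM in overexpressing cells, against 74.3 and 67.7 CPM in control, and rose by 0.43 (SE 0.06, edgeR adjusted p = 9.88e-06). Neither gene had overlapping groups, and both were called in every alternative. RPTN, a filaggrin-type protein of the granular layer, had 1.79 and 1.26 CPM in overexpressing cells, against 0.309 and 0.879 CPM in control (log2 change 1.34, SE 0.43, edgeR adjusted p = 0.0243). ALOX12B had 4.72 and 3.73 CPM in overexpressing cells, against 2.41 and 2.57 CPM in control (0.74, SE 0.23, edgeR adjusted p = 0.0182). CERS3 had 45.9 and 45.6 CPM in overexpressing cells, against 39.3 and 36.2 CPM in control (0.28, SE 0.07, edgeR adjusted p = 0.0077). The groups were apart in all 3 genes, but DESeq2 called none of them (adjusted p = 0.235, 0.209 and 0.104), and edgeR lost each when 1 library was left out. For RPTN the libraries were overexpression replicate 1 and control replicate 1, and its log2 change ran between 0.75 without control replicate 1 and 2.24 without control replicate 2. For CERS3 they were overexpression replicate 2 and control replicate 2, and for ALOX12B overexpression replicate 1 and either control.

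DMKN had 56.8 and 58.2 CPM in overexpressing cells, against 65.8 and 70.3 CPM in control, and fell by 0.24 (SE 0.06, edgeR adjusted p = 0.00597). DESeq2 did not call it (adjusted p = 0.09), nor did edgeR without overexpression replicate 1 (adjusted p = 0.0597). CSTA and PPL, the members with the most counts in SCC25, did not pass although their groups did not overlap. CSTA had 153.9 and 168.96 CPM in overexpressing cells, against 151 and 151 CPM in control (log2 change 0.10, SE 0.05, edgeR adjusted p = 0.196), and PPL had 158 and 163 CPM in overexpressing cells, against 152 and 141 CPM in control (0.13, SE 0.05, edgeR adjusted p = 0.0738). KRTDAP, at 9.06 and 8.12 CPM in overexpressing cells and 7.72 and 6.42 CPM in control, did not pass either (0.26, SE 0.15, edgeR adjusted p = 0.227). SPRR1B had 1.98 and 1.33 CPM in overexpressing cells, against 2.22 and 1.15 CPM in control, with overlap (-0.09, SE 0.34, edgeR adjusted p = 0.885).

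The effects of overexpression in the 2 lines were compared in a joint fit of the 10 A253 and SCC25 libraries, in which 29 of the 40 genes were tested. The difference, SCC25 effect minus A253 effect, passed for 3 genes, all in the positive direction, against 2.39% of the 15460 genes tested called positive and 3.25% negative (5.63% in all). In the negative direction 1 gene, DMKN, had an unadjusted p under 0.05 in edgeR, and DESeq2 called 0. TGM1 differed by 0.88 (SE 0.12, edgeR adjusted p = 1.20e-04), having risen in SCC25 and fallen in A253. ELOVL4 differed by 0.82 (SE 0.15, edgeR adjusted p = 0.00307): in SCC25 it had 12.1 and 11.4 CPM in overexpressing cells, against 8.46 and 11.6 CPM in control, with overlap, while it fell in A253. LYPD3 differed by 0.73 (SE 0.19, edgeR adjusted p = 0.0258), with 20.8 and 22.8 CPM in overexpressing and 25.4 and 21.4 CPM in control SCC25 cells, which overlapped. DESeq2 did not call LYPD3 (adjusted p = 0.0925), and 5 of the 10 single libraries ended its call in edgeR when left out. CDSN (1.94, SE 0.59, edgeR adjusted p = 0.061), IVL (0.94, SE 0.36, edgeR adjusted p = 0.136) and CERS3 (-0.10, SE 0.12, edgeR adjusted p = 0.734) did not differ past the threshold between the lines. The rise in EHF itself was smaller in SCC25, by a log2 of 2.05 (SE 0.11, edgeR adjusted p = 5.56e-10).

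**Figure D5:**
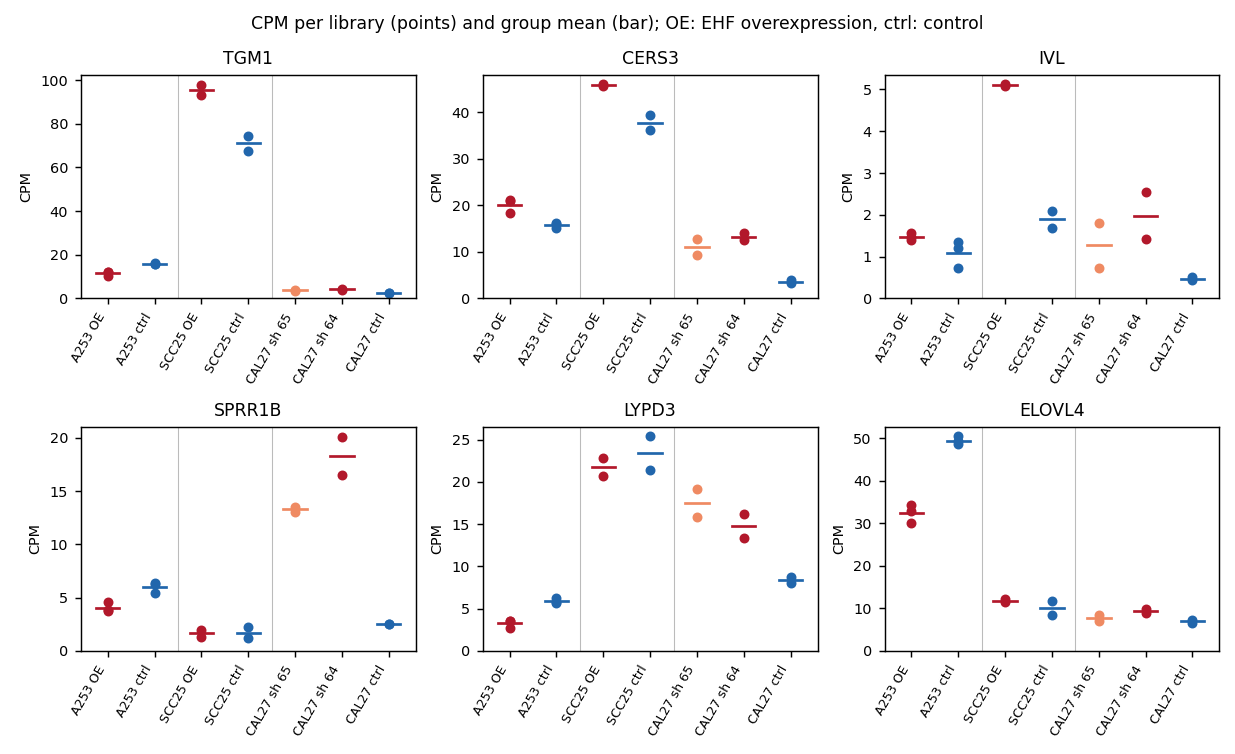
CPM per library (points) and group mean (bars) of TGM1, CERS3, IVL, SPRR1B, LYPD3 and ELOVL4 in all 7 groups, with the EHF-changed groups left of each line's control; axes start at 0. CERS3 lies above control in all 3 lines, while TGM1 lies below control in A253 overexpression and above it in SCC25 overexpression and CAL27 knockdown.

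Across the 3 lines, 19 of the 40 genes were called in at least 1, 6 in at least 2 and 2 in all 3. The 19 include SPRR1A, SPRR2D, IVL, FLG and CALML5 in CAL27 and RPTN in SCC25, which were tested there through the EHF-changed libraries. Of the 14 members tested in all 3 lines, 12 were called in at least 1 line, 6 in at least 2 and 2 in all 3. FLG is among the 12 only through its CAL27 call, and IVL among the 6 only with its CAL27 call. These counts are thus not on equal terms with the shares of all genes. Of all 12658 genes tested in all 3 lines, 39.2% were called in at least 1, 10.8% in at least 2 and 1.61% in all 3, in either direction. These are descriptions without a test. CERS3 was called higher in all 3, with EHF overexpressed in A253 and SCC25 and with EHF knocked down in CAL27. TGM1 was called lower in A253 and higher in SCC25 and in CAL27. SPRR1B, ABCA12 and LYPD3 were called lower with overexpression in A253 and higher with knockdown in CAL27, and in SCC25 none of them was called. IVL was called higher with overexpression in SCC25 and with knockdown in CAL27. All these calls are those of edgeR. DESeq2 called CERS3 only in CAL27 and TGM1 only in A253 and SCC25, and so no member in all 3 lines. It did not call SPRR1B in A253 or IVL in CAL27 either. Lines, constructs and culture media differ together, so differences between A253, SCC25 and CAL27 cannot be assigned to 1 of these.

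Other genes of the same processes were taken from lists. Their counts stand beside the shares of all tested genes called higher and lower, which were 9.88% and 8.91% in CAL27, 5.03% and 2.94% in A253 and 12.2% and 11.6% in SCC25. Of 54 other envelope genes, 16 were tested in CAL27 and 7 were called higher and 1 lower after knockdown. LY6D, a surface protein of stratified epithelium, rose by 1.46 (SE 0.09, edgeR adjusted p = 5.18e-08) and SPINK5, an inhibitor of the proteases that shed corneocytes, by 1.13 (SE 0.22, adjusted p = 0.00131). TGM2, a transglutaminase found in many tissues, fell by 2.37 (SE 0.15, edgeR adjusted p = 1.78e-08), opposite in direction to TGM1. Of 39 other barrier lipid genes, 25 were tested in CAL27, 6 higher and 3 lower. NIPAL4, mutated in ichthyosis, rose by 1.71 (SE 0.35, edgeR adjusted p = 0.00205), and the ceramide enzymes DEGS1 (-0.36) and CERS2 (-0.33) fell (adjusted p = 0.00444 and 0.00639). Between the hairpins, sh 65 against sh 64, CST6 (1.14) and LY6D (0.88) were higher and TGM2 (-1.31), NIPAL4 (-1.27) and TMEM45A (-0.88) lower, with edgeR adjusted p-values of 3.21e-05 to 0.0328.

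In A253 the other envelope genes gave 3 higher and 4 lower of 16, and in SCC25 6 higher and 3 lower of 18. HOPX, a homeodomain cofactor of differentiating keratinocytes, rose in both, by 1.33 in A253 and 1.53 in SCC25 (edgeR adjusted p = 3.76e-04 and 2.60e-04), as did KRT80, by 0.74 and 1.65 (adjusted p = 1.28e-04 and 1.66e-08). SPTLC3, a subunit of the enzyme that starts ceramide synthesis, fell in both, by 0.63 and 0.59 on the log2 scale (edgeR adjusted p = 2.53e-04 and 2.56e-05). SPTLC2, another subunit of it, rose by 0.69 in A253 (adjusted p = 1.83e-06), where LGALS7B (-0.80) and the protease CTSL2 (-0.53) fell (edgeR adjusted p = 0.00492 and 6.68e-05). In SCC25 TGM2 rose by 1.24, and the elongase ELOVL6 (-0.64) and the small heat shock protein CRYAB (-0.45) fell (edgeR adjusted p = 3.04e-08, 3.06e-05 and 5.33e-05). Other barrier lipid genes gave 3 higher and 3 lower of 27 in A253 and 8 higher and 2 lower of 26 in SCC25.

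Of 27 regulators of terminal differentiation, 24 were tested in CAL27 and 11 were called higher and 2 lower after knockdown, while A253 gave 4 higher and 2 lower of 27 and SCC25 6 higher and 1 lower of 27. Chosen here after their values were seen, the zinc finger factors ZNF750 and KLF4, which promote late differentiation, rose by 1.75 and 0.82 in CAL27 (edgeR adjusted p = 2.80e-05 and 4.45e-05), as did the receptor NOTCH3 by 1.62 (adjusted p = 5.57e-08). The 2 called lower were the nuclear receptor PPARG (-0.83, edgeR adjusted p = 0.0126) and the AP-1 factor FOSL1 (-0.74, edgeR adjusted p = 0.0252), and 6 of the 24 lay below 0. ZNF750, KLF4 and NOTCH3 were not called in A253 (log2 changes -0.21, -0.04 and -0.42) or in SCC25 (0.09, 0.13 and 0.12), with edgeR adjusted p-values of 0.386 to 0.871. Of 11 keratins, 7 of the 9 tested rose in CAL27, 5 of 10 fell in A253 and 6 of 10 rose in SCC25. Beside the regulator and keratin counts, 9.88% of all tested genes were called higher and 8.91% lower in CAL27. These shares were 5.03% and 2.94% in A253 and 12.2% and 11.6% in SCC25. KRT16, a keratin of stressed and growing epithelium, likewise named after its values were seen, rose by 1.42 in CAL27, fell by 0.66 in A253 and rose by 0.16 in SCC25 (edgeR adjusted p = 1.29e-07, 4.19e-04 and 0.0282).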

How the data were processed

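RNA was sequenced from 16 libraries of 3 cell lines; 1 chromatin immunoprecipitation library and 1 input library were not analysed here. The authors deposited whole-number read counts per gene and TPM per gene, made with TopHat2 2.1.1, Bowtie 1.1.1 and featureCounts 1.5.3 on hg19, per the submitters' processing notes, which also list DESeq2 1.12.4. The CAL27 counts carried 696 altered gene names, 2 of them members (SPRR1A and SPRR1B). These were restored by row position: gene lengths implied by counts and deposited TPM matched those of A253 within 0.01 log2 for 18450 of 18450 genes, 38 of them members. SCC25 TPM was computed from its counts with A253 lengths, and 4 per-sample columns were not used.

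Counts were tested in R 4.3.3 with edgeR 4.0.16 (filterByExpr with a minimum count of 10, TMM scaling, robust quasi-likelihood test, Benjamini-Hochberg adjustment over all genes tested). There was 1 fit per line, with the 3 CAL27 groups together, and 1 joint fit of A253 and SCC25 for the difference of effects. CPM are TMM-scaled. Intervals at 95% and the floor of 3 counts cover counting error only. The test was also run on simulated counts with the same spread for every gene. That run does not show how the test fares at the spread of these libraries. Alternatives were DESeq2 1.42.0, RLE scaling, no filter, a replicate block, each library left out and CAL27 gene lengths.

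Members and lists were chosen with earlier results of these data known. Values per library are given for EHF and for members called in a comparison whose mean log2 CPM in that line was 0 or more. From the other barrier lists, up to 3 genes with the largest rise and 3 with the largest fall past the threshold at that level are named. Other genes given in full were chosen after their values were seen.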

Additional observations from a re-analysis of the deposited data

Results flagged for a closer look

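Among the 4 CAL27 knockdown libraries, FLG in sh 65 replicate 2 stood apart at 3.63 CPM, with the other 3 between 4.39 and 4.48 CPM. The gap to its nearest neighbour was 0.889 of the whole range, above Dixon's 95% critical value for 4 samples. It was the only 1 of 21 genes examined to do so, and chance gives such a gap in about 5% of groups. The values rest on few counts, 43 and 30 with sh 65 and 58 and 31 with sh 64, and the rule took both hairpins as 1 group. All 4 values lay above both controls.

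The effect of EHF overexpression differed between SCC25 and A253 for 3 genes by the test of the difference itself. The SCC25 effect minus the A253 effect, on the log2 scale, was 0.884 for TGM1, 0.818 for ELOVL4 and 0.732 for LYPD3 (edgeR adjusted p = 1.20e-04, 0.00307 and 0.0258). EHF also rose less in SCC25 than in A253, and its part in these differences was not tested.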

How the results depend on the processing

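No called log2 change of a member turned its direction under any alternative run. Under DESeq2, A253 had 0 genes called higher and 4 lower, and SCC25 had 2 higher and 0 lower. It called 10 of the 14 genes in CAL27 knockdown, 8 of the 9 with sh 65 and 9 of the 12 with sh 64. Between hairpins it called 5 of the 6, and for the difference between lines 2 of the 3. The cause was not tested. RLE scaling and the absence of a filter kept every member call. Gene lengths from CAL27 match those used within the tolerance, so taking them could not move a TPM and tests nothing. With 1 library left out at a time, A253 gave 0 to 1 gene higher and 5 to 6 lower, and SCC25 3 to 4 higher and 0 to 2 lower. CAL27 knockdown gave 10 to 16 higher, sh 65 against control 7 to 12, sh 64 against control 7 to 15, and sh 65 against sh 64 1 to 4 higher and 2 to 4 lower. The difference between SCC25 and A253 gave 2 to 3. Where this left 1 library in a group, it was assumed to vary like the other groups, and the cause was not tested. The count over all genes also moved: with 1 library left out it was 658 to 1036 in A253 (edgeR called 1156 with all), 2124 to 3639 in SCC25, 937 to 3038 in CAL27 knockdown, 879 to 2026 for sh 65, 866 to 2876 for sh 64, 263 to 1048 between hairpins and 318 to 936 for the difference between lines. The background shares move with it, in CAL27 knockdown between 6.69% and 21.9%. Over all genes, DESeq2 called 817 where edgeR called 1156 in A253, 1555 against 3370 in SCC25 and 1445 against 2560 in CAL27 knockdown. The counts were 1183 against 1994 for sh 65, 1202 against 2133 for sh 64 and 431 against 728 between hairpins. For the difference between lines they were 498 against 871.

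Replicate numbers are shared between groups, but same-numbered libraries did not deviate together throughout (r = -0.192, 0.0109 and 0.181 in A253, -0.0306 in SCC25, and 0.153, -0.0107 and 0.0856 for sh 65 with control, sh 64 with control and sh 65 with sh 64 in CAL27). These values do not settle whether same-numbered samples were paired. A replicate block gave 1 gene higher and 5 lower in A253, 6 and 1 in SCC25, 14 and 0 in CAL27 knockdown, 10 and 0 for sh 65, 12 and 0 for sh 64, 4 and 4 between hairpins, and 3 and 0 for the difference between lines. Over all genes, edgeR called 1087 with the block and 1156 without it in A253, and 3521 and 3370 in SCC25. In CAL27 knockdown the counts were 3317 and 2560, with 2715 and 1994 for sh 65 and 2968 and 2133 for sh 64. They were 1260 and 728 between hairpins and 975 and 871 for the difference between lines. Under the block SPRR1B in A253 was no longer called (edgeR adjusted p = 0.0552). PPL in SCC25 (0.0462), ABCA12 with sh 65 (0.0258), and EVPL (0.0352) and PPL (0.00760) between hairpins were called. The sh 64 replicate numbers differ between the deposited tables, so the block, these correlations and the names of left-out sh 64 libraries rest on the count table. Genes under 1 CPM rest on few counts, and 2 libraries a group limit what SCC25 and CAL27 can show.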
